A study of Mus musculus with 8 samples.

Results

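Stress granules are cytoplasmic condensates of untranslated mRNA and RNA-binding proteins that form when translation initiation is blocked, and sodium arsenite is the agent most often used to provoke them. The mRNAs of 10 genes for their constituent proteins were followed here: *G3bp1*, *G3bp2*, *Caprin1*, *Usp10*, *Tia1*, *Tial1*, *Atxn2*, *Atxn2l*, *Pabpc1* and *Fmr1*. They were chosen by name as well known granule proteins, with earlier results of these data known. All 10 were listed in each of the 3 gene tables, among 9875 genes listed in all 3 and 10690 listed in at least 1. The cells were NIH3T3, an established line of mouse embryonic fibroblasts, and the RNA was total RNA of the culture. The conditions were no treatment (NT), 250 µM sodium arsenite for 1 h (AS), and the same exposure followed by a recovery period of 4 h in RC4 and 8 h in RC8. QuantSeq FWD, which sequences fragments close to the poly(A) tail, was applied to 1 library per condition. There was therefore no replicate, no test and no P value, and the 95% intervals given below cover counting error only.

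In the granule, G3bp1 and G3bp2 form the scaffold that gathers RNA, Caprin1 binds them and favours assembly, and Usp10, a deubiquitinase, competes for the same surface. Tia1 and Tial1 carry prion-like regions, the ataxin-2 proteins bind the poly(A)-binding protein Pabpc1, and Fmr1 encodes FMRP, a translational regulator found on ribosomes. A gene with several polyadenylation sites (PASs) in its last exon makes mRNAs that encode the same protein with 3′UTRs of different length. A PAS in an intron yields a shortened mRNA with another end.

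The PASs of the members that changed most are shown first, because the results on 3′ ends turn on them. Each line gives the gene, the length of the 3′UTR that the PAS defines, and the 30 bases that end at the PAS, read 5′ to 3′ on the strand of the gene from the mm9 genome. Capitals mark AATAAA where the window held it, otherwise ATTAAA, otherwise 1 of 9 single-base variants of AATAAA. Only the copy nearest the PAS is in capitals, and the 253-nt window of *Tial1* holds another AATAAA upstream in lower case.
*Atxn2*, 368 nt, chr5:122264714-122264743 (+): tgctgctattaccgctttaaaaaaaaaaaa
*Atxn2*, 554 nt, chr5:122264900-122264929 (+): ataatataaAATAAAaactaaaaaaaaaaa
*Tial1*, 253 nt, chr7:135585794-135585823 (-): aaaaaactaaaataaagtcAATAAAgacaa
*Tial1*, 2761 nt, chr7:135583286-135583315 (-): tttcAATAAAgactagtctatgtaagtggc
*Tia1*, 200 nt, chr6:86380532-86380561 (+): aaaaggaacacgatggtggatgtttgccaa
*Tia1*, 1775 nt, chr6:86382107-86382136 (+): tatttttaagtACTAAAacattgaaatttg
*Tia1*, 2430 nt, chr6:86382762-86382791 (+): gatATTAAAattcctttatgttttatatga
*Caprin1*, 1043 nt, chr2:103605913-103605942 (-): cccttttaaattgctatctttagaaaagca
*Caprin1*, 1905 nt, chr2:103605051-103605080 (-): taaaagacaactacctgggatgtaccacaa

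*G3bp1* lies on chromosome 11, *G3bp2* and *Atxn2* on 5, *Caprin1* on 2, *Usp10* on 8, *Tia1* on 6, *Tial1* and *Atxn2l* on 7, *Pabpc1* on 15 and *Fmr1* on X. All 9 of the PASs shown lie in the last exon, past the stop codon of the CCDS transcript in the GENCODE vM1 annotation of the same build, and the distal PAS of *Tial1* lies just past the annotated transcript end. Over the 3 PAS tables the members had 35 PASs, 28 of them in the 3′-most exon. AATAAA stood in the 30-base window of 9 of the 35 (25.7%), against 36.0% of all 21565 PASs. None of the signals searched was found in 17 of them (48.6%), against 36.8% of all PASs. Every *G3bp1* PAS was among these 17, including PASs at 1155 and 1181 nt that different tables list. The share without a signal thus leans on 1 gene and is not a trait of the members as a set. Both *Atxn2* PASs adjoin a run of A in the genome, of 12 bases at the proximal and 11 at the distal PAS. A run of at least 8 A within 20 nt was present at 3.72% of all PASs of 3′-most exons. Oligo(dT) primes the QuantSeq libraries, and whether these runs contributed reads was not tested.

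Reads assigned to genes numbered 22.44 M to 22.996 M per library over the 3 tables. A level is given in RPM, the reads of a gene scaled so that all genes of its table sum to 1000000. Of 10 fibroblast markers 9 were listed and none of 8 epithelial, endothelial and haematopoietic markers was listed in any table. The summed level of the fibroblast markers was 14578 RPM in NT, 15163 under AS, 11614 in RC4 and 8756 at RC8, of which *S100a4* alone gave 10272, 10867, 8089 and 5715. None of the 9 was past 1.5-fold in AS, 4 were lower in RC4 and 6 in RC8, beside 31.8% and 11.9% of all genes. The lowest log2 changes were -2.18 for *Pdgfrb* in RC4 and -1.79 for *Col3a1* in RC8. The part this had in the results below was not tested. The 4 listed arsenite-responsive genes *Hmox1*, *Hspa1b*, *Mt1* and *Mt2* were above NT in all 3 treated libraries, by log2 changes of 1.07 to 5.80. In bulk RNA, fewer cells of a type and less RNA per cell cannot be told apart.

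At the end of arsenite exposure 1 member was lower than in NT by at least 1.5-fold, *Fmr1*, and none was higher. After 4 h of recovery 5 members were lower, *G3bp1*, *G3bp2*, *Usp10*, *Tia1* and *Atxn2l*, and none was higher. After 8 h *Atxn2l* alone of the 10 was past that fold, on a value of which 1 count column was 0, and without it no member was. Among all genes, 11.4% were lower and 1.88% higher by 1.5-fold in AS, 31.8% lower and 8.04% higher in RC4, and 11.9% lower and 11.3% higher in RC8. The 5 of 10 members in RC4 thus stand beside a background of nearly 1 gene in 3, and the 1 of 10 under AS and in RC8 stands near the background share. The median log2 change of the members was -0.23 under AS, -0.56 in RC4 and -0.10 at RC8, beside -0.04, -0.30 and 0.01 over all genes.

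**Figure D1:**
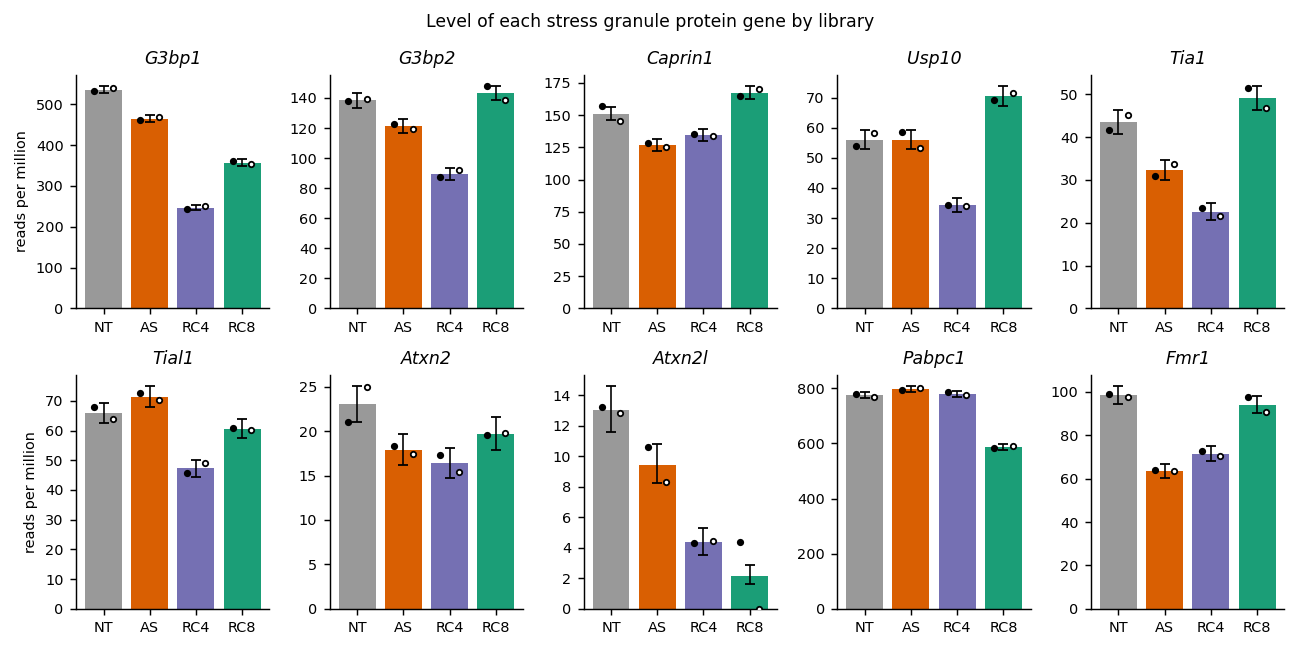
Level of each member in RPM (y axis, from 0) in the 4 libraries (x axis). Bars are the summed count columns with 95% exact Poisson intervals, and filled and open points are the first and the second count column alone. *G3bp1* is lowest in RC4 at 246 RPM, *Fmr1* is lowest in AS at 63.6 RPM, and the columns of *Atxn2l* part in RC8.

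*G3bp1* was measured at 536 RPM in NT, 465 under AS, 246 in RC4 and 357 at RC8. Its mRNA, the message of the central scaffold protein, was lowest 4 h into recovery and remained below NT at 8 h. The level in RC4 was 2.18-fold below NT (log2 change -1.12, interval -1.17 to -1.08), with 5641 reads against 12105. In RC8 it was 1.4996-fold below NT, just short of the 1.5-fold limit.

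The paralog *G3bp2* was measured at 138 RPM in NT, 121 under AS, 89.5 in RC4 and 143 at RC8. It was lowest at 4 h like *G3bp1*, but at 8 h its interval against NT spanned no change (log2 -0.02 to 0.12). The RC4 level was 1.55-fold below NT (log2 -0.63, interval -0.71 to -0.55). *Usp10*, which encodes the deubiquitinase partner of the scaffold, stood at 56.1 RPM in NT, 56.1 under AS, 34.3 in RC4 and 70.4 at RC8. Its RC4 level was 1.64-fold below NT (log2 -0.71, interval -0.84 to -0.58) and its RC8 level was 1.26-fold above NT, under the limit. *Usp10* was thus level with NT at the end of exposure, lowest at 4 h and highest at 8 h.

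*Caprin1*, which encodes the partner that favours assembly, was measured at 151 RPM in NT, 127 under AS, 135 in RC4 and 167 at RC8. No change of *Caprin1* reached 1.5-fold, and the log2 changes were -0.25, -0.16 and 0.15. Of the scaffold group, *Caprin1* was the member without a low point past 1.5-fold at 4 h.

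*Tia1* was measured at 43.5 RPM in NT, 32.3 under AS, 22.5 in RC4 and 49.1 at RC8. The RC4 level was 1.93-fold below NT (log2 -0.95, interval -1.11 to -0.80), and RC8 was 2.18-fold above RC4. Its paralog *Tial1*, which encodes TIAR, was measured at 65.9 RPM in NT, 71.4 under AS, 47.3 in RC4 and 60.5 at RC8. *Tial1* was likewise lowest at 4 h, but its largest difference from NT was 1.40-fold, in RC4, and was under the limit.

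*Atxn2* was measured at 23.02 RPM in NT, 17.9 under AS, 16.4 in RC4 and 19.7 at RC8, and none of its log2 changes (-0.37, -0.49 and -0.23) reached the limit, although the second count column alone gave -0.70 in RC4 and the first -0.29. *Atxn2l*, the ataxin-2 paralog, was measured at 13.0 RPM in NT, 9.45 under AS, 4.37 in RC4 and 2.17 at RC8. It was the member lowest against NT both at 4 h (2.99-fold, log2 -1.58, interval -1.92 to -1.25) and at 8 h. The RC8 value rests on 50 reads in the first count column and 0 in the second, against 149 and 145 in NT. From the first column alone the RC8 log2 change was -1.60, beside -2.58 from the sum. A split of 50 and 0 is not one that counting would give, 64 genes of the RC8 library have a column at 0, and its cause was not tested. The tables list no gene with fewer than 50 reads in a library, so the sum of *Atxn2l* in RC8 is at the smallest value they hold.

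*Pabpc1* was measured at 775 RPM in NT, 797 under AS, 781 in RC4 and 587 at RC8. The mRNA of the poly(A)-binding protein differed from NT by under 3% in both AS and RC4 and was 1.32-fold below NT in RC8 (log2 -0.40, interval -0.43 to -0.37), under the limit. Reads of *Pabpc1* can be shared with near-identical copies in the genome, so its values are uncertain to that extent. *Fmr1* was measured at 98.6 RPM in NT, 63.6 under AS, 71.5 in RC4 and 94.2 at RC8. It was the member lowest against NT at the end of exposure (1.55-fold, log2 -0.63, interval -0.73 to -0.54), and its values after that were progressively nearer to NT. Among paralogs, *Pabpc4* was at 92.5 RPM in NT, 71.3 under AS, 58.7 in RC4 and 46.4 at RC8, lower than NT by 1.5-fold or more in both recovery libraries. *Fxr1* and *Fxr2*, paralogs of *Fmr1*, showed log2 changes of -0.06 and -0.50 under AS, 0.22 and -0.50 in RC4 and 0.08 and 0.07 at RC8, none past the limit.

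**Figure D2:**
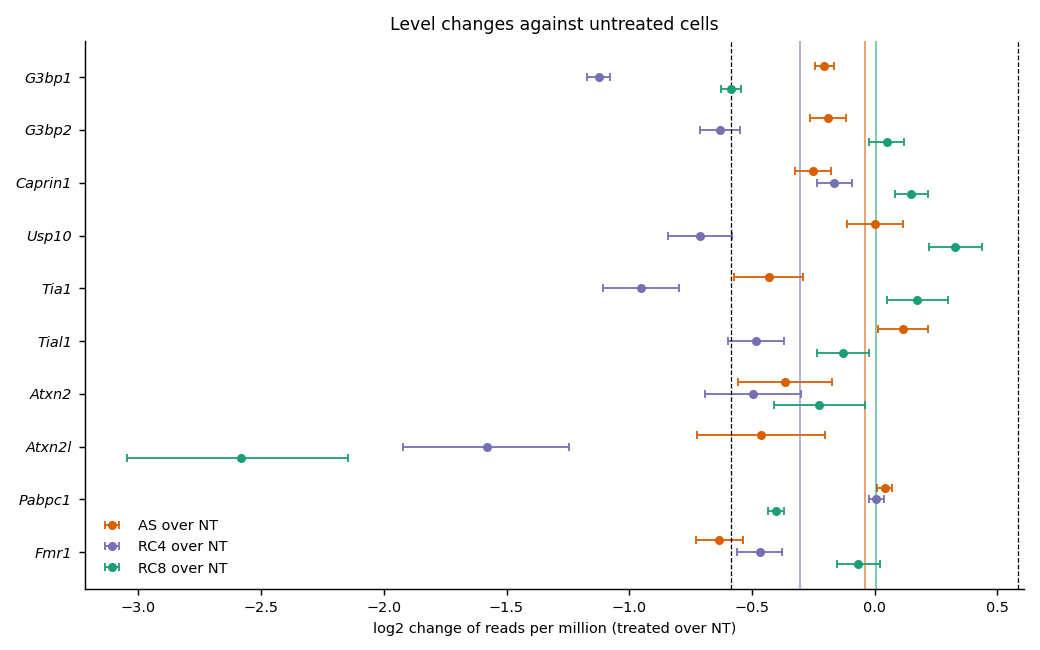
Log2 change of the level of each member (x axis) in AS, RC4 and RC8 over NT, with 95% intervals from the counts. Dashed lines mark 1.5-fold in either direction and coloured lines the median of all genes in each comparison, -0.30 in RC4. In RC4, 5 members lie left of the dashed line and *Pabpc1* lies at 0.01.

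The median gene was itself below NT in RC4, so the RC4 changes were also expressed relative to it. The log2 change relative to the median gene was -0.82 for *G3bp1*, -0.33 for *G3bp2*, -0.41 for *Usp10*, -0.65 for *Tia1* and -1.28 for *Atxn2l*. On that scale 3 of the 5 remained past 1.5-fold, *G3bp1*, *Tia1* and *Atxn2l*, and 32.4% of all genes were past it in either direction, so that 3 of 10 members is near the background. *Caprin1* was at 0.14 and *Pabpc1* at 0.31, so the sign of *Caprin1* in RC4 depends on the scaling.

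From 4 to 8 h of recovery the median log2 change over 9972 shared genes was 0.26. *Tia1* (log2 1.12), *Usp10* (1.04), *G3bp2* (0.68), *G3bp1* (0.54) and *Fmr1* (0.40) were above that median with intervals that did not reach it. *Pabpc1* (-0.41) and *Atxn2l* (-1.01) were lower in RC8 than in RC4. The *Atxn2l* value rests on its second count column, which is 0 in RC8. Its first column alone gave 4.28 RPM in RC4 and 4.35 in RC8. The members were thus not moving as 1 group between the recovery times.

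PAS use could be compared in 8 members, since *Usp10* and *Atxn2l* had 1 PAS each. A share is the percentage of the reads of a gene that was assigned to a PAS. A PAS changed its share by at least 10 percentage points in 1 of 8 members in AS (*Tial1*), in 3 in RC4 (*Atxn2*, *Tial1* and *Tia1*) and in 4 in RC8 (these 3 and *Caprin1*). Among all genes with at least 2 PASs the share with such a change was 15.3% under AS, 29.1% in RC4 and 27.0% at RC8. The counts in AS and RC4 are near this background.

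*Atxn2* has 2 PASs in its last exon, 186 nt apart, the first pair of sequences shown above. The proximal PAS took 33.5% of reads in NT, 40.3% under AS, 70.7% in RC4 and 67.7% at RC8. The preferred 3′ end of *Atxn2* was thus the distal one in NT and AS and the proximal one in both recovery libraries. The change was 37.2 percentage points in RC4 (interval 30.8 to 43.1), 34.4 at RC8 (interval 28.3 to 40.1) and 6.80 under AS (interval 0.53 to 13.1). MAAPER assigns reads to a PAS by a model of their distance from it, and these 2 PASs lie close together. The intervals take the shares as counted reads and leave out the error of that assignment. Mean 3′UTR length was 492 nt in NT and 423 nt in RC4. Isoform levels from here on are in RPM and were not rescaled to the median gene, whose log2 change in RC4 was -0.30. In levels, the long isoform was at 15.3 RPM in NT, 10.7 under AS, 4.80 in RC4 and 6.36 at RC8, while the short isoform was at 7.71, 7.20, 11.6 and 13.3 RPM. The long isoform was 3.20-fold lower in RC4 while the short one was 1.498-fold higher than in NT, and the gene as a whole was 1.41-fold lower. Both PASs adjoin the genomic A runs described above, and whether reads primed there moved the shares was not tested.

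**Figure D3:**
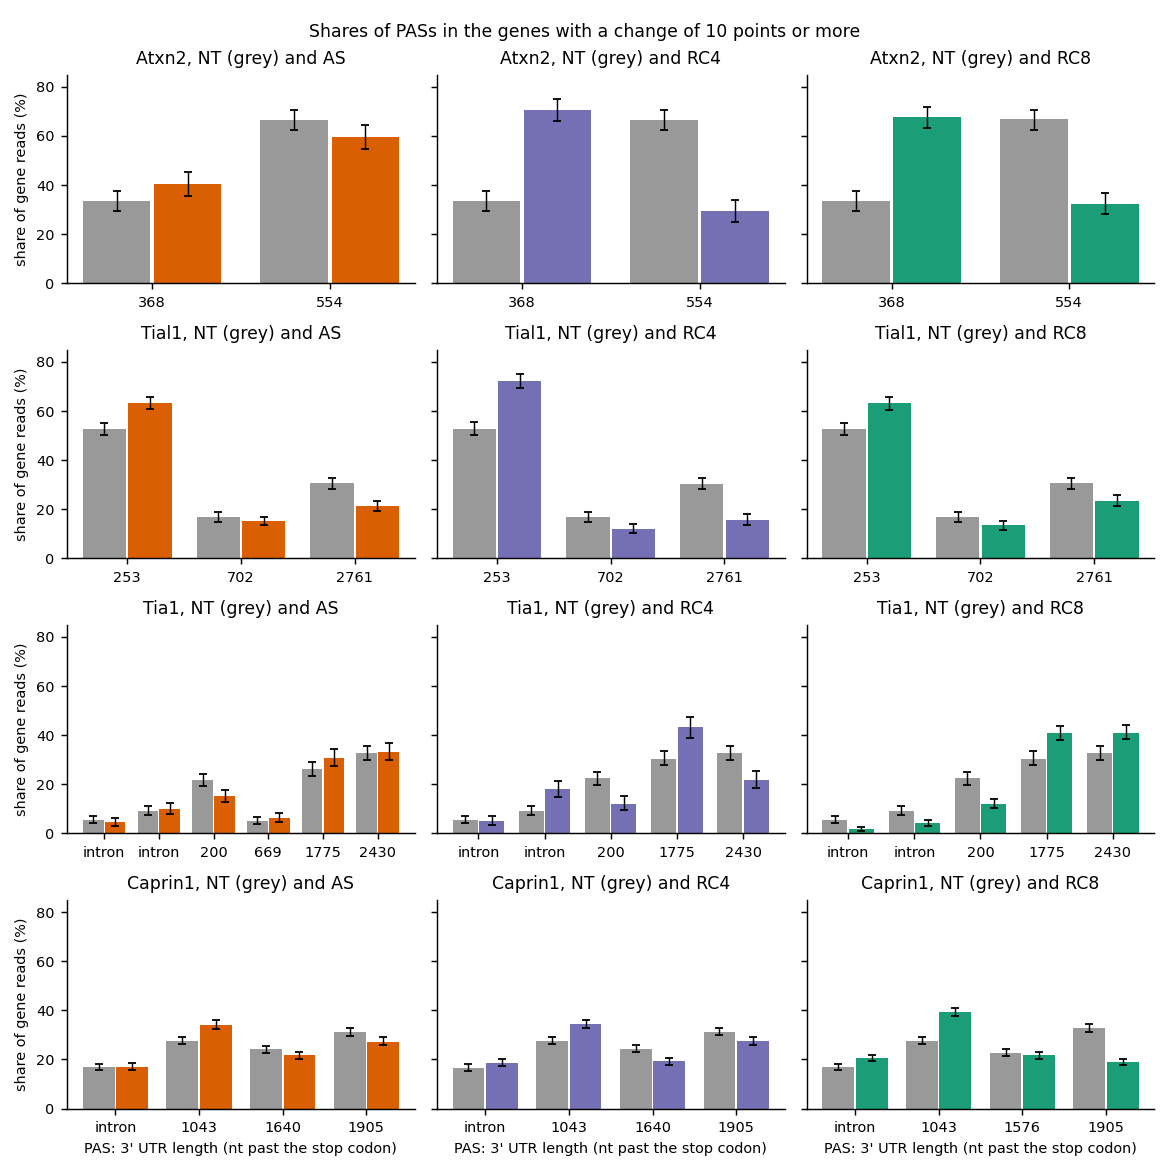
Share of the reads of a gene (y axis, %) at each PAS, in NT (grey) and the treated library (colour), for *Atxn2*, *Tial1*, *Tia1* and *Caprin1* in the 3 comparisons, with 95% Wilson intervals. PASs run 5′ to 3′ on the x axis and are named by the 3′UTR length they define, or as intronic. The 2 PASs of *Atxn2* exchange places in RC4 and RC8, where the proximal one holds 70.7% and 67.7%.

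*Tial1* has 3 PASs in the last exon, with 3′UTRs of 253, 702 and 2761 nt. The proximal PAS took 52.7% of reads in NT, 63.4% under AS, 72.3% in RC4 and 63.1% at RC8. The distal PAS took 30.5%, 21.4%, 15.7% and 23.4%. *Tial1* therefore had a shorter mean 3′UTR in every treated library, 858 nt in AS, 701 nt in RC4 and 901 nt at RC8 beside 1094 nt in NT. The change at the proximal PAS was 10.7 percentage points in AS (interval 7.22 to 14.1), 19.5 in RC4 (interval 15.8 to 23.1) and 10.4 at RC8 (interval 6.80 to 14.0). In levels the 253-nt isoform was at 34.7 RPM in NT and 34.2 in RC4, while the 2761-nt isoform was at 20.1 and 7.43 RPM, 2.71-fold lower. On the RPM scale, the low level of *Tial1* at 4 h was thus in the longer isoforms. On that scale the interval of the shortest isoform spanned no change (log2 -0.17 to 0.11). That interval lies above the median gene of RC4, at -0.30, relative to which *Tial1* as a whole was at -0.18.

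*Tia1* showed changes between its 3′-most PASs and at intronic PASs. The 200-nt PAS took 22.4% of reads in NT and 12% in RC4 and 12.1% at RC8, and in the AS table, where another PAS was also listed, 21.6% in NT and 15.1% under AS. The 1775-nt PAS took 30.5% in NT, 43.2% in RC4 and 40.9% at RC8. The most distal PAS, 2430 nt, took 32.7% in NT, 21.8% in RC4 and 41.1% at RC8. *Tia1* thus had less use of the shortest 3′UTR in both recovery libraries, with the most distal PAS below NT at 4 h and above it at 8 h. Its mean 3′UTR was 1613 nt in NT, 1715 nt in RC4 and 1859 nt at RC8, longer rather than shorter. The summed share of its intronic PASs, which lie upstream of the stop codon, was 14.4% in NT, 14.4% under AS, 23% in RC4 and 5.94% at RC8. In RC4 the 2430-nt isoform was at 4.91 RPM against 14.3 in NT, while the isoform of the second intronic PAS was at 4.06 against 3.94 RPM. In RC8 the isoforms of 1775 and 2430 nt were at 20.1 and 20.2 RPM, above NT by 1.51-fold and 1.42-fold. The RC8 level of *Tia1*, close to NT as a whole, was thus made up of more long and fewer intronic isoforms.

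*Caprin1* has an intronic PAS and 3 PASs in the last exon. The 1043-nt PAS took 27.6% of reads in NT and 39.2% in RC8, a change of 11.6 percentage points (interval 9.44 to 13.7). The 1905-nt PAS took 32.7% and 18.8%, a change of -13.9 (-15.9 to -11.9). The shift was already in the same direction in AS and RC4, where the 1043-nt PAS changed by 6.40 and 6.80 percentage points, under the limit. In RC8 the 1043-nt isoform was 1.57-fold above NT and the 1905-nt isoform 1.57-fold below, so that the modest change of the gene as a whole joined opposite changes of its isoforms. The middle PAS was placed at 1640 nt in the AS and RC4 tables and at 1576 nt in the RC8 table, which limits comparison of its share.

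**Figure D4:**
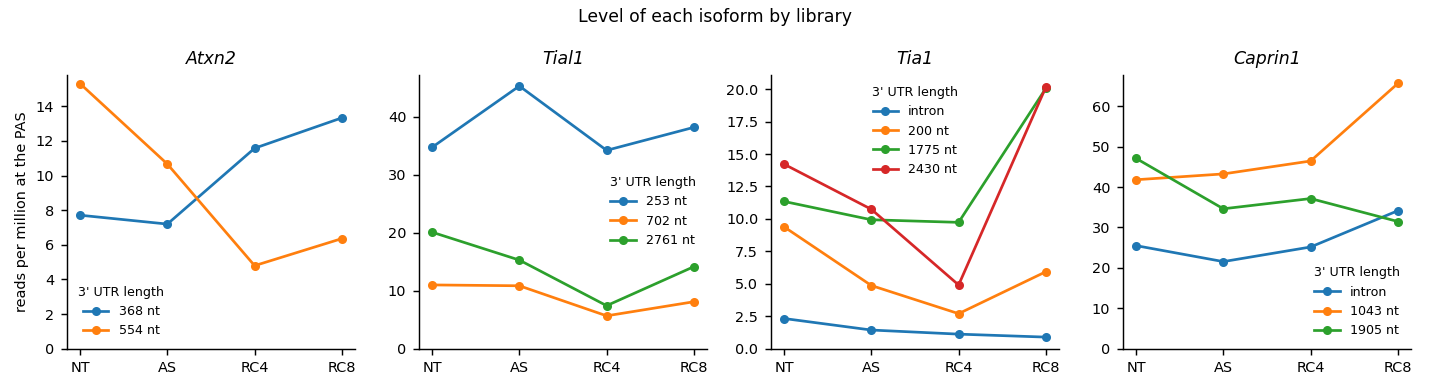
Level of each isoform (y axis, RPM of the gene multiplied by the share of the PAS) in the 4 libraries (x axis), for the PASs listed at one position in all 3 tables. The long *Atxn2* isoform lies above the short one in NT (15.3 and 7.71 RPM) and below it in RC4 (4.80 and 11.6 RPM), and the isoforms of *Caprin1* part in RC8.

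In the other members with several PASs no share changed by 10 percentage points. *G3bp2* had 4 PASs in the last exon, and in RC8 its 170-nt PAS went from 48.0% to 40.7% and its 2621-nt PAS from 31.3% to 38.8%, which made its mean 3′UTR 1254 nt beside 1064 nt in NT. This was the opposite direction to *Caprin1* in the same library. *G3bp1* had 3 PASs in the AS and RC8 tables and 5 in the RC4 table, so shares of single PASs cannot be compared between these tables. Its mean 3′UTR, which can, was 909 nt in both NT and AS, 896 nt in RC4 and 931 nt at RC8. The 2.18-fold lower level of *G3bp1* in RC4 thus went with little change in mean 3′UTR length over the listed PASs. The most distal of these lies at 1181 nt (chr11:55314351), while the annotated transcript runs on to chr11:55318340, a part that this mean does not cover. *Fmr1* used its 2288-nt PAS for 91.6% of reads in NT, 89.2% under AS, 89.7% in RC4 and 90.5% at RC8.

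*Pabpc1* had 1 PAS in the 3′-most exon, which took 75.3% of reads in NT, 70.8% under AS, 69.4% in RC4 and 75% at RC8. Its other PASs lie in an intron of the 3′UTR, in the coding part of the exon that holds the stop codon and, in the RC4 and RC8 tables, in the first exon. The intronic PAS went from 2.95% to 5.16% under AS and from 6.89% to 10.5% in RC4. Shares of *Pabpc1* depend on which PASs a table lists, since the PAS in the coding part took 21.7% of the same NT library in the AS table and 12.9% in the others.

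**Figure D5:**
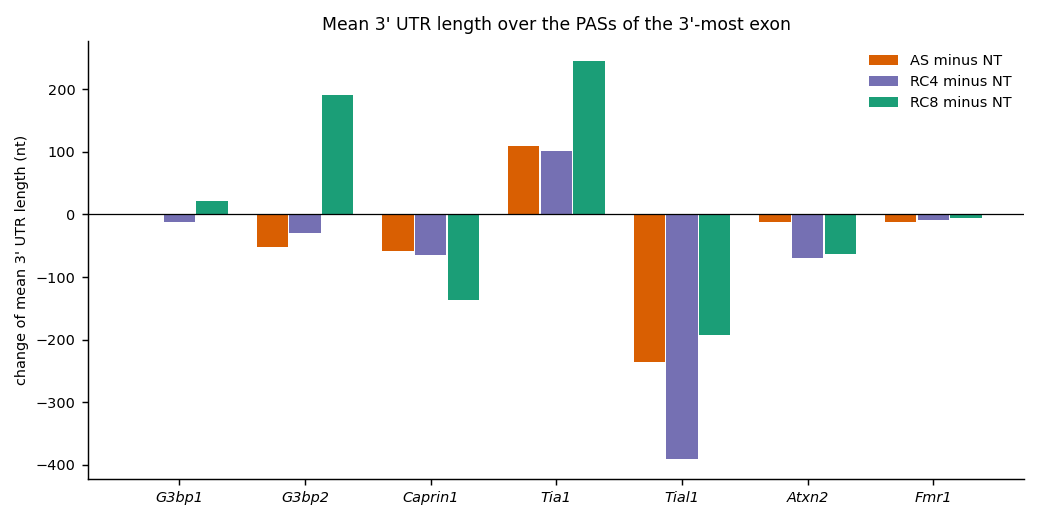
Change of the mean 3′UTR length (y axis, nt, treated minus NT) over the PASs of the 3′-most exon, for the 7 members with at least 2 such PASs, in AS, RC4 and RC8. *Tial1* lies below 0 in all 3 comparisons, by -390 nt in RC4, while *Tia1* lies above 0 in all 3 and *G3bp2* above 0 in RC8 only.

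For the 7 members with at least 2 PASs in the 3′-most exon, the relative expression difference (RED) was recomputed from the shares as the log2 ratio of distal to proximal PAS in the treated library minus that in NT, for the 2 PASs with the greatest change. A negative RED means a shift to the proximal one of these 2 PASs, which need not shorten the mean 3′UTR. The median RED of the members was -0.42 under AS, -1.09 in RC4 and -0.20 at RC8, beside -0.23, -0.37 and -0.14 over all genes. RED was below 0 in 6 of the 7 members in AS, 7 in RC4 and 4 in RC8, against 67.5%, 68.6% and 55.7% of all genes. In RC8 the members went both ways, from -2.07 for *Atxn2* and -1.30 for *Caprin1* to 1.15 for *G3bp1* and 1.31 for *Tia1*. RED was -2.26 for *Atxn2* and -1.41 for *Tial1* in RC4, with counting errors of 0.21 and 0.15. *Tia1* had a RED of -1.09 in RC4, taken between its 1775-nt and 2430-nt PASs, although its mean 3′UTR was longer, because RED compares just 2 PASs. This *Tia1* value is also the median of the members in RC4. *G3bp1* had a RED of -0.66 in AS and -1.26 in RC4, while its mean 3′UTR changed by 0.38 and -11.9 nt. The relative length difference, the log2 ratio of length-weighted shares over all PASs of the exon, takes as length the distance from the first PAS (1 nt for that PAS itself) and not the whole 3′UTR, so it is on another scale than a ratio of mean 3′UTR lengths. It had a median over the members of -0.08 under AS, -0.05 in RC4 and -0.02 at RC8, beside -0.05, -0.09 and -0.03 over all genes. In RC4 it ran from -1.17 for *Atxn2* and -0.90 for *Tial1* to -0.03 for *Fmr1*. The other 5 members lay between -0.23 (*Caprin1*) and -0.03. This measure also counts reads lost to intronic PASs, which is why it was -0.05 for *Tia1* in RC4 while the mean 3′UTR of its last-exon isoforms was longer.

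The stretch between the first and the last PAS of the 3′-most exon, which long isoforms hold and the shortest lack, was 186 nt in *Atxn2*, 862 nt in *Caprin1*, 2230 nt in *Tia1* and 2508 nt in *Tial1*. ATTTA, the core of AU-rich elements, was searched on the strand of the gene and stood in this stretch once in *Atxn2*, 2 times in *Caprin1*, 5 times in *Tia1* and 2 times in *Tial1*. All 7 members held at least 1 copy, as did 67.7% of the 4749 genes with a stretch of at least 100 nt. TGTANATA, the motif that Pumilio proteins bind, stood in the stretch of *Atxn2*, *G3bp2* and *Tial1*, against 24.6% of these genes. These are matches of letters and not measured binding.

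Genes of related processes were described from fixed lists at the same 1.5-fold limit. Of 49 further stress granule components all were listed in AS, with 9 lower and 1 higher, and in RC8 4 were lower and 1 higher. In RC4 48 were listed, with 6 lower and none higher, and their median log2 change of -0.11 was above the -0.30 of all genes, whereas that of the 10 members was below it. The extremes of this list were *Zfp36*, which encodes a protein that destabilises AU-rich mRNAs (1.74 under AS), and *Larp4b* (-1.37 under AS). In RC4 they were *Igf2bp2* (0.57) and *Prrc2a* (-0.91), and in RC8 *Stau2* (0.61) and *Pabpc4* (-0.995).

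P-bodies are neighbouring condensates of mRNA decay factors. Of their 21 listed components 8 were lower and none higher in AS, beside 11.4% and 1.88% of all genes. In RC4 7 were lower and 1 higher, beside 31.8% and 8.04%. In RC8 1 was lower and 1 higher, beside 11.9% and 11.3%. *Edc3*, an enhancer of decapping, was the highest in all 3 comparisons (0.16, 0.66 and 0.95), and *Tnrc6c* in AS (-1.30), *Lsm2* in RC4 (-1.92) and *Lsm7* in RC8 (-0.72) were the lowest. A further list took 15 genes around the phosphorylation of eIF2alpha, the event that triggers granules under arsenite. It holds genes for kinases and a phosphatase of eIF2alpha, and also for the subunits of eIF2 and of its exchange factor eIF2B. The list is thus not confined to genes whose products phosphorylate eIF2alpha. Of the 15 genes, 2 were lower and 1 higher in AS, 7 lower and 3 higher in RC4, and 1 lower and 3 higher in RC8. These counts stand beside the same shares of all genes as those given for the P-body list. *Ppp1r15a*, which encodes the inducible subunit of the eIF2alpha phosphatase, was at 11.9 RPM in NT, 55.7 under AS and 45.8 in RC4, the highest of its list in both, and *Eif2b4* was the highest in RC8 (0.92). The lowest of this list were *Ppp1r15b* in AS (-0.69), *Eif2ak2* in RC4 (-1.22) and *Eif2ak3* in RC8 (-0.64).

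Of 12 genes for granule clearance, a list that includes chaperones, 11 were listed in AS, with 1 lower and 2 higher. Among all genes 11.4% were lower and 1.88% higher in AS. In RC4 10 were listed, with 2 lower and 5 higher, beside 31.8% and 8.04% of all genes. In RC8 11 were listed, with 1 higher and none lower, beside 11.3% and 11.9% of all genes. *Hspa1b*, which encodes an inducible Hsp70 and has a near-identical copy in the genome that makes its reads uncertain, was the highest in each and reached 2369 RPM in RC4 against 42.4 in NT. *Ulk2* was the lowest in AS (-0.59), and *Dyrk3*, a kinase that dissolves granules, in RC4 (-1.17) and RC8 (-0.37). In RC4 the list divided into 5 chaperones and co-chaperones at log2 changes of 1.504 or above (*Hspa1b*, *Dnajb1*, *Hspa8*, *Bag3* and *Hspb8*, named after their values were seen) and 5 other genes at 0.18 or below. Its median of 0.84, beside -0.30 over all genes, therefore describes neither set.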

How the data were processed

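The deposited gene tables hold raw read counts, unscaled, with 2 columns for each library that were added here. What sets the 2 columns of a library apart is not given in the sources used here. The labels list 1 sample per condition, so the columns were not taken as replicates, and 43 to 93 genes per library have 1 column at 0. The deposited PAS tables hold, for each PAS, the fraction of the reads of its gene. Per the labels and methods, reads were trimmed with bbmap, mapped to mm9 with STAR 2.5.2a and analysed with MAAPER and PolyA_DB. The tables also hold the P values and the RED and RLD scores of the authors' own comparisons, which were not used. The 4 QuantSeq REV libraries were not analysed here. The members and the gene lists were chosen with earlier results of these data known.

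RPM was scaled to the sum over the genes of a table, with NT taken from the same table in each comparison and, where 1 NT value is given, from the AS table. Fold intervals were exact conditional binomial (Clopper-Pearson), share intervals Wilson and changes of shares Newcombe, at 95%. Intervals treat reads as independent, which PCR copies are not, and share intervals leave out the error of assigning reads to PASs. Named genes were all members, 3 paralogs, the markers of the label check and the highest and lowest gene of each list. Level alternatives were median-gene scaling, TMM (edgeR 4.0.16, R 4.3.3), the read numbers given by the study, scaling from genes with at least 200 reads, each count column alone and a 2-fold limit. PAS alternatives were limits of 5 and 20 percentage points, the 3′-most exon alone and PASs within 100 nt merged. Calculations used Python 3.11.15 and scipy 1.17.1 and were tested on simulated data.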

Additional observations from a re-analysis of the deposited data

How the results depend on the processing

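With 1 library per condition, no spread between cultures can be given. No paired analysis was possible because each condition has 1 library and the labels carry no replicate numbers. Under median-gene or TMM scaling the members past 1.5-fold numbered 3 in RC4 (*G3bp1*, *Tia1* and *Atxn2l*) in place of 5, beside 32.4% and 32.6% of all genes, and the median log2 change of the members in RC4 was -0.26 and -0.27 in place of -0.56, since these scalings remove the shift of the median gene. Under either scaling, and with the second count column alone, 2 members were past the limit in RC8 in place of 1, *G3bp1* joining *Atxn2l*. Among all genes 23.3%, 23.3% and 23.6% were past it. In the second column *Atxn2l* has 0 reads in RC8, so its call there rests on a small count put in place of 0. The second column alone gave 2 in AS in place of 1, *Atxn2l* joining *Fmr1*, and 6 in RC4 in place of 5, *Atxn2* joining. These stand beside 13.5% and 39.8% of all genes. At 2-fold the members called numbered 0 in AS and 2 in RC4 (*G3bp1* and *Atxn2l*), beside 3.85% and 17.1% of all genes. At 5 percentage points the members called in PAS use numbered 4 in AS and 6 in RC4, beside 42.6% and 59.2% of all genes with at least 2 PASs. At 20 they numbered 0 in AS and 1 in each of RC4 and RC8, *Atxn2*, beside 2.02%, 7.34% and 4.97%. Of 57 recomputed counts and medians 41 stayed within their limits, and of 179 values of single genes 31 moved past their counting interval. The 41 values of the 7 changes past 1.5-fold kept their sign, and 8 of the other 138 did not, in *Usp10* in AS, *Caprin1* and *Pabpc1* in RC4 and *G3bp2* in RC8. Among alternatives chosen after seeing the data, leaving out *Atxn2l* left 0 members called in level in RC8, and leaving out PASs beside a run of 8 or more A left 2 members called in RC4 and 3 in RC8, but it takes away both PASs of *Atxn2*, which could then not be compared.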
